A study of Mus musculus with 12 samples.

Results

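Heat shock proteins and the J proteins that work with them were followed in the liver of Balb/c mice during the onset of hepatitis caused by concanavalin A (ConA), a plant lectin that activates T cells. The members were all genes whose probe carried a single symbol of the families Hspa, Hspb, Hspd1, Hspe1, Hsph1, Hsp90, Dnaja, Dnajb and Dnajc, with 1 probe for each gene, that with the highest mean over all arrays. This gave 70 members of the 18193 genes measured, represented among 169 of 45101 probes. The mice were male, 8 to 10 weeks old, and liver RNA was hybridised to 12 Affymetrix mouse arrays, 3 of control mice (0 h) and 3 for each of the times 1 h, 3 h, 6 h that followed 20 mg/kg ConA given into the tail vein. The labels call the 0 h mice untreated, whereas the methods state that control mice received PBS. No control mice were sampled at the later times, so that ConA and the time of day cannot be told apart in any comparison with 0 h. All 3 comparisons with 0 h share the same control arrays. Whole liver was measured, in which fewer cells of a type and less RNA per cell cannot be told apart.

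Proteins of the Hsp70 family bind exposed hydrophobic stretches of unfolded proteins and release them in a cycle driven by ATP. J proteins (DNAJ) deliver the client and stimulate the ATPase of Hsp70, nucleotide exchange factors reset it, and Hsp90 takes over many clients that are nearly folded. Small heat shock proteins hold unfolded proteins without ATP, and Hsp60 with its lid Hsp10 folds proteins inside mitochondria. Genes of the cytosolic set are induced by the transcription factor HSF1 when proteins unfold in the cytosol, and those of the endoplasmic reticulum (ER) by ATF6 and XBP1 in the unfolded protein response. The liver secretes most plasma proteins, and its ER carries a high load of folding in the resting state.

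The values are array signals on the linear scale as deposited, with a floor of 3.04 (the 20th percentile of the table), and changes are differences of mean log2 signal from 1 limma fit over the 12 arrays, with p adjusted by Benjamini-Hochberg over all 18193 genes and a threshold of 0.05. Median signals per array were 13.7 to 20.4, and 17.4 to 23.1% of the signals of an array were at the floor. Of the 70 members, 58 were above the floor on all 12 arrays, 11 were at it on some, and Hspb9 was at it on all. The members were mostly bright, with 54 above the median gene and 16 below it. RNA was extracted from the liver of each mouse, but the labels do not say whether the 3 arrays of a group came from separate mice, so that the p-values measure the spread between these arrays. The number of arrays limits the precision.

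In all, 37 of the 70 members passed the F test over the 4 time points, as did 6906 of all 18193 genes (38%). The share was larger among the members, which were mostly bright. At 1 h, 4 members were higher than in the control group (5.71%, against 1.5% of all genes) and 0 were lower, against 0.148% of all genes. At 3 h, 2 were higher (2.86%, against 5.15%) and 9 lower (12.9%, against 14.7%). At 6 h, 19 were higher (27.1%, against 15.4%) and 8 lower (11.4%, against 12.7%). The shares of members lower at 3 h and 6 h were thus close to those of all genes. Among the 9096 genes brighter than the median gene, which include 54 members, 2.33% were higher at 1 h and 25.2% at 6 h, against 7.41% and 35.2% of the bright members. Of the bright genes 24% were lower at 3 h and 21.2% at 6 h, against 16.7% and 14.8% of the bright members. The median log2 change of the members was 0.10 (1 h), -0.15 (3 h) and 0.10 (6 h), where all genes had 0.08, -0.21 and 0.02.

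The whole distribution of signals was lower at 3 h, and the calls there moved with the scaling. After quantile normalization, which gives every array the same distribution, the median of all genes at 3 h was -0.05. The members then split into 5 higher and 3 lower, where 7.96% and 9.06% of all genes were. The quantile split was 19 higher and 13 lower for 6 h, where 14.2% and 17.7% of all genes were. For 1 h it stayed at 4 higher with 0 lower, where 1.29% and 0.396% of all genes were. Between neighbouring time points, 1 member was higher at 3 h than at 1 h (1.43%, against 3.08% of all genes). At that step 20 members were lower (28.6%, against 19.9%). Among genes brighter than the median gene, 33.3% of the members and 33.7% of all were lower. After quantile normalization 3 members were higher and 2 lower, where 5.52% and 5.38% of all genes were. At 6 h against 3 h, 19 members were higher (27.1%, against 18.8% of all genes) and 2 lower (2.86%, against 3.83%). Among genes brighter than the median gene, 35.2% of the members and 31.5% of all were higher. The quantile split was 11 and 5, where 9.34% and 10.3% of all genes were. Other probes of the members called mostly had the sign of the chosen probe. They numbered 5 for the calls at 1 h, of which 4 had the same sign and 3 passed, 11 at 3 h (9 and 3) and 42 at 6 h (36 and 21), and 1 probe each at 3 h and 6 h passed in the opposite direction. Members that passed under both scalings numbered 4 higher for 1 h, 2 higher with 3 lower for 3 h, and 17 higher with 8 lower for 6 h.

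**Figure D1:**
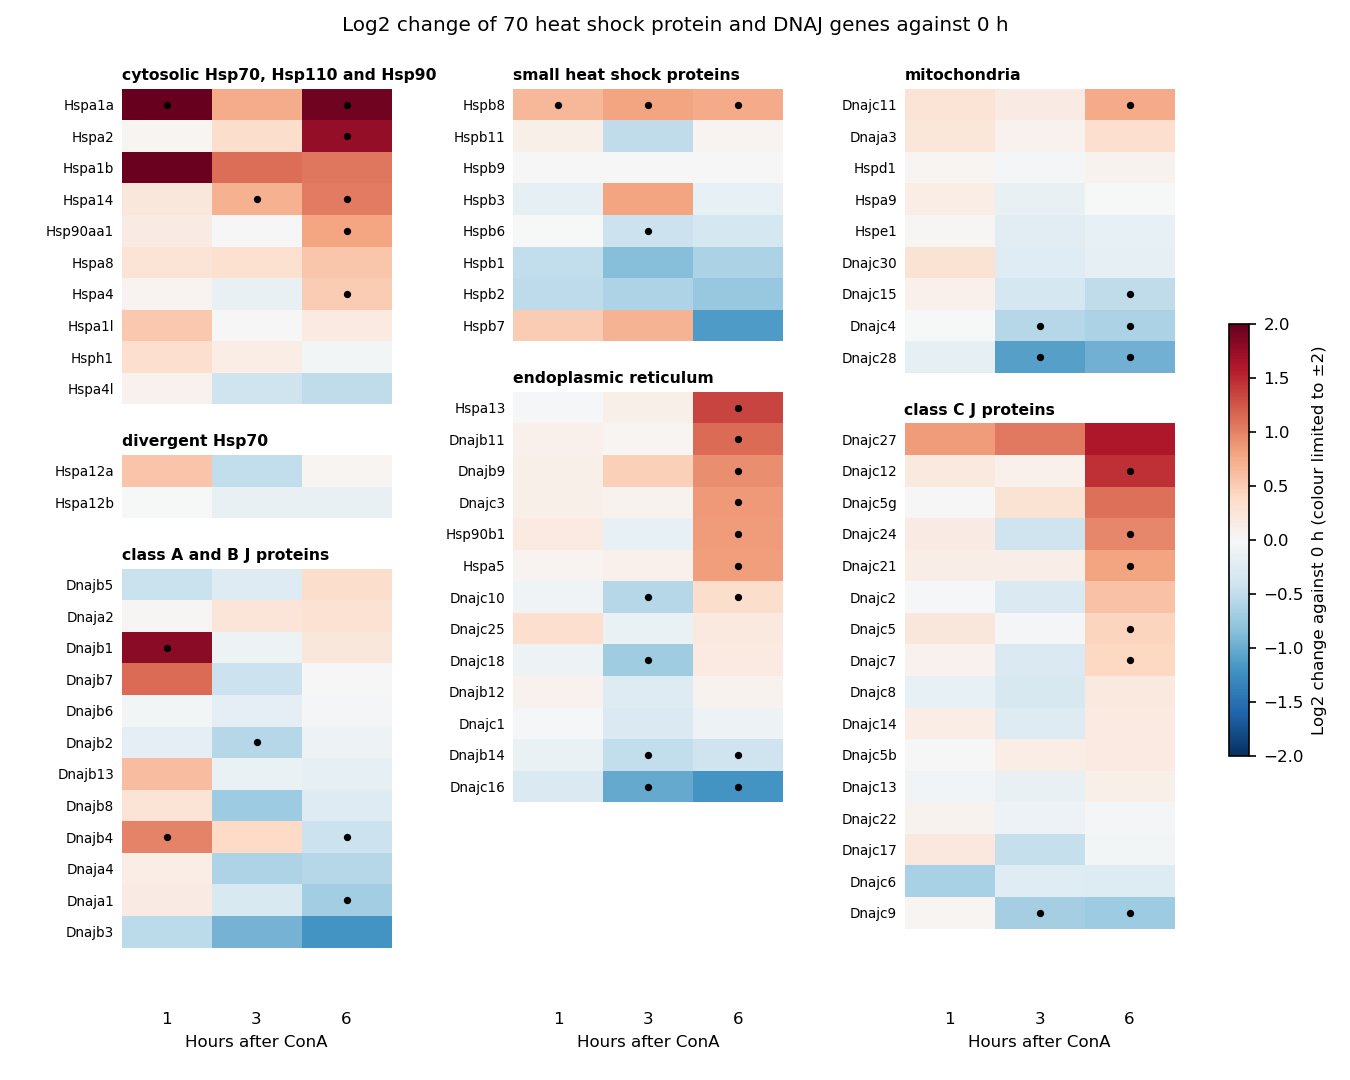
Log2 change of the 70 members against 0 h (colour, limited to ±2) at 1, 3 and 6 h after ConA (horizontal axis), grouped by compartment or class, with genes ordered by their change at 6 h and a dot where the adjusted p was under 0.05. At 1 h 4 members carry a dot, and at 6 h 27 do, of which 7 higher ones belong to the endoplasmic reticulum.

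Markers of other cells of the liver moved over the same hours. Of 10 neutrophil markers measured, 4, 6 and 9 were higher at the 3 later times, and their summed signal was 114 to 180 (0 h), 898 to 1223 (1 h), 1548 to 2216 (3 h) and 1732 to 2673 (6 h). Every later array was above every control array in this sum. None of the 7 hepatocyte markers passed the test at any time as deposited, and their sum was 58817 to 64050 (0 h), 61525 to 66067 (1 h), 57168 to 58737 (3 h) and 57689 to 61955 (6 h). After quantile normalization 1 of them, Cps1, was lower at 6 h (-0.33, adjusted p = 0.0021). Of 6 stellate cell markers 0, 2 and 4 were lower, with sums of 2206 to 2987 (0 h), 2242 to 3019 (1 h), 1556 to 1730 (3 h) and 1238 to 1447 (6 h), so that the arrays at the last 2 times were below all controls. Of 7 Kupffer cell markers 3 were lower at both 3 h and 6 h, and Marco was higher at 6 h, with sums of 1202 to 1612 (0 h), 1418 to 1676 (1 h), 851 to 971 (3 h) and 729 to 1023 (6 h). Of 7 T cell markers 0, 0 and 2 were higher, with sums of 52.8 to 66.7 (0 h), 68.1 to 97.5 (1 h), 68.8 to 88.8 (3 h) and 103 to 146 (6 h). Of 4 monocyte markers 0, 2 and 3 were higher, and their sums of 34.5 to 62.7 (0 h), 57.1 to 68.4 (1 h), 84.3 to 90.9 (3 h) and 127 to 177 (6 h) put every array of the last 2 times above all controls. Among 6 markers of sinusoidal endothelial cells, Kdr was lower at 3 h and 6 h and Clec4g at 6 h, while Lyve1 and Pecam1 were higher at 6 h, and the sums overlapped with the controls at each time, with 775 to 1524 (0 h), 1355 to 1520 (1 h), 735 to 810 (3 h) and 802 to 963 (6 h). None of 4 B cell and 2 erythroid markers passed, and 1 of 4 cholangiocyte markers was higher at 6 h. No marker of these lists was at the floor on all arrays. The part of these cells in the changes of the members was not tested.

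The 4 members higher at 1 h were 1 of the 10 cytosolic Hsp70, Hsp110 and Hsp90 genes, 2 of the 12 J proteins of class A and B, and 1 of the 8 small heat shock proteins. Hspa1a, a stress-inducible Hsp70, had signals of 11.2, 12.7 and 24.2 on the control arrays, then 287, 187 and 376 (1 h), 23.4, 46.3 and 14.7 (3 h) and 87.5, 35.0 and 65.3 (6 h). All 3 arrays at 1 h and all 3 at 6 h lay above every control array, while those at 3 h overlapped with the controls. The log2 change was 4.17 at 1 h, an 18.0-fold difference (SE 0.51, adjusted p = 0.0030), and 1.95 at 6 h (SE 0.51, adjusted p = 0.018). The signal was lower at 3 h than at 1 h by 3.43 on the log2 scale (adjusted p = 0.0023). The call at 6 h was lost when control replicate 1, control replicate 2, ConA 6 h replicate 1 or ConA 6 h replicate 3 was left out, with log2 changes of 1.66 to 2.32 and adjusted p of up to 0.064 over all 12 such fits.

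Hspa1b, the neighbouring copy of Hspa1a that encodes a nearly identical protein, had signals of 504, 258 and 618 on the control arrays, then 1951, 1086 and 2317 (1 h), 954, 1054 and 804 (3 h) and 1579.9, 666 and 712 (6 h). Its arrays after ConA were all above the control arrays, which were themselves spread from 258 to 618. The changes of 1.98 (1 h), 1.11 (3 h) and 1.07 (6 h) did not pass the test, with adjusted p of 0.064, 0.11 and 0.10. When the fit was restricted to genes brighter than the median, all 3 did pass, with adjusted p of 0.0086, 0.034 and 0.030. The probes of the 2 copies may share transcripts, so that the values of each gene on its own are uncertain.

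Dnajb1, the main inducible J protein partner of cytosolic Hsp70, had signals of 185, 152 and 164 on the control arrays, then 606, 505 and 642 (1 h), 152, 214 and 115 (3 h) and 208, 199 and 176 (6 h). All arrays at 1 h stood apart from all others, and those at 3 h and 6 h overlapped with the controls. The log2 change at 1 h was 1.80 (SE 0.21, adjusted p = 0.0019), and the signal at 3 h was lower than at 1 h by 1.90 (adjusted p = 0.00052). Of the 20 members lower at 3 h than at 1 h, Hspa1a and Dnajb1 were the ones that passed under both scalings.

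Dnajb4, a close relative of Dnajb1, had signals of 368, 363 and 325 on the control arrays, then 753, 644 and 711 (1 h), 499, 517 and 388 (3 h) and 301, 243 and 240.3 (6 h). The 3 arrays at 1 h were the highest and those at 6 h the lowest, with no overlap with the controls in either case. Its log2 change was 1.00 at 1 h (SE 0.14, adjusted p = 0.0065) and -0.44 at 6 h (SE 0.14, adjusted p = 0.042). The fall at 6 h did not pass when any 1 of 8 arrays was left out, namely any control replicate, ConA 1 h replicate 2 or 3, ConA 3 h replicate 1, or ConA 6 h replicate 2 or 3, with values of -0.54 to -0.38 and adjusted p of up to 0.13 over all 12 such fits. At 3 h its change of 0.40 (adjusted p = 0.072) passed after quantile normalization (0.55, adjusted p = 0.021) and in the fit of genes brighter than the median (adjusted p = 0.039). A second probe of Dnajb4 rose by 0.98 at 1 h and 0.69 at 3 h (adjusted p = 0.042 and 0.044 over all probes) and changed by -0.09 at 6 h (adjusted p = 0.82). The dimmest probe ran the other way at 1 h (-0.52, adjusted p = 0.56) and 3 h (-1.30, adjusted p = 0.019).

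Hspb8, a small heat shock protein that acts with the exchange factor Bag3 in clearing misfolded proteins, was the only member higher at all 3 time points. Its signals were 726, 797 and 864 on the control arrays, then 1443, 1145 and 1218 (1 h), 1444, 1298 and 1400.3 (3 h) and 1350.2, 1421 and 1249 (6 h). Each array after ConA was above every control array. The log2 changes were 0.67 (adjusted p = 0.016), 0.80 (adjusted p = 0.0013) and 0.75 (adjusted p = 0.00086), and that at 1 h was lost without control replicate 1 (adjusted p = 0.062) and when only these 2 groups entered the fit (adjusted p = 0.16). A second probe of Hspb8 was higher at all 3 times (0.89, 0.82 and 0.97), while its dimmest probe passed at no time (0.49, 0.53 and -0.54). Bag3 itself had signals of 149, 119.9 and 212 on the control arrays, then 413, 369 and 465 (1 h), 483, 667 and 498 (3 h) and 537, 484 and 407 (6 h) and log2 changes of 1.41, 1.80 and 1.60 (adjusted p = 0.012, 0.00060 and 0.00058). Of the 66 partner genes measured it was the 1 that passed at 1 h (1.52%), a share close to the 1.5% of all genes.

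**Figure D2:**
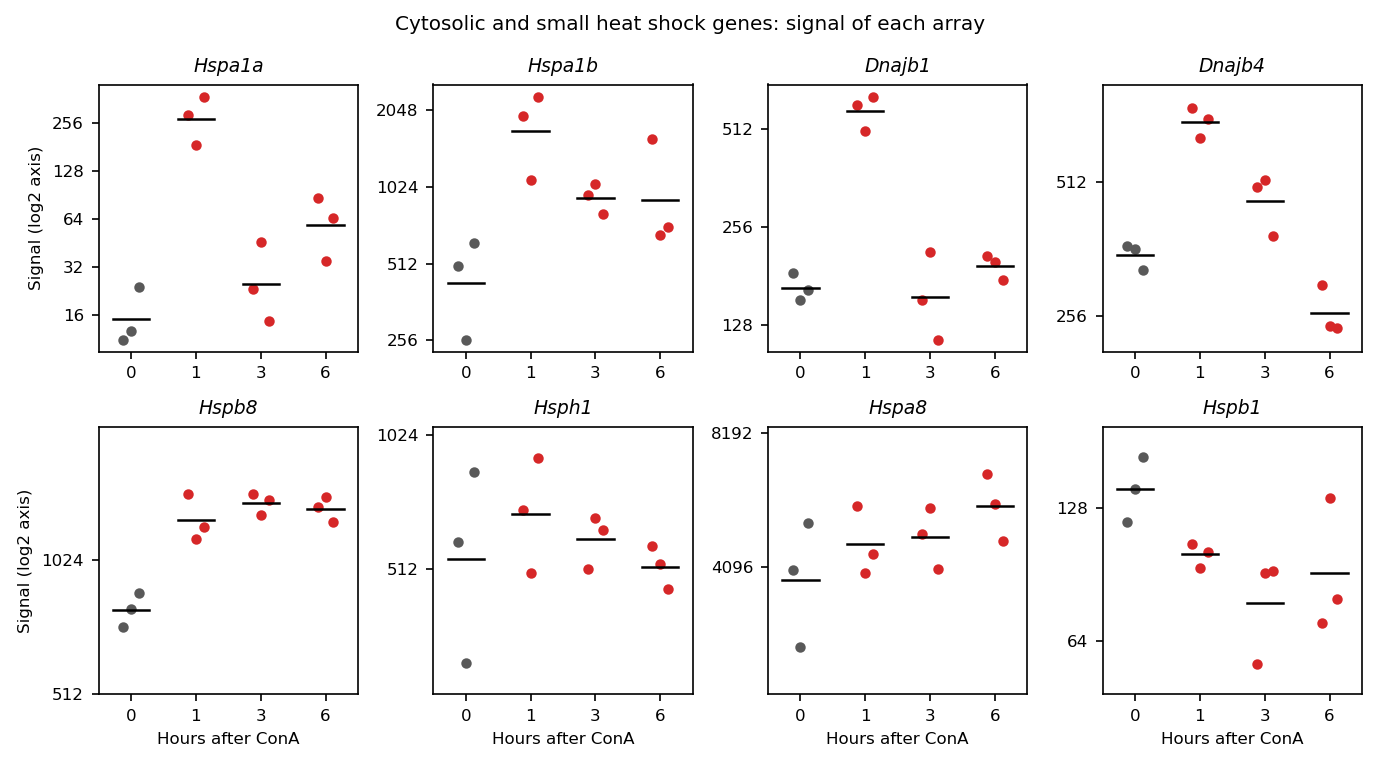
Signal of each of the 12 arrays (points, log2 axis, a different range in each panel) at 0, 1, 3 and 6 h after ConA for 8 cytosolic and small heat shock genes, with the geometric mean of each group as a line. Control arrays are grey and ConA arrays red. The arrays at 1 h stand above the controls in Hspa1a, Hspa1b, Dnajb1, Dnajb4 and Hspb8, and overlap with them in Hsph1 and Hspa8.

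Other genes usually counted among HSF1 targets did not pass the test at 1 h with their chosen probe. Hsph1, an Hsp110 that acts as exchange factor for Hsp70, had signals of 588, 314 and 846 on the control arrays, then 694, 500.0 and 910.0 (1 h), 511, 667 and 624 (3 h) and 575, 524 and 460.0 (6 h), and the groups overlapped at every time (log2 change 0.34, SE 0.34, adjusted p = 0.77 at 1 h). Hspa8, the constitutive Hsp70, had 5631, 3966 and 4377 at 1 h and 6627, 5679 and 4696 at 6 h, against 4027, 2707 and 5146 on the control arrays (log2 change 0.27, SE 0.25, adjusted p = 0.75 at 1 h, and log2 change 0.55, SE 0.25, adjusted p = 0.14 at 6 h). Of its 3 dimmer probes, 1 with a mean signal of 122 rose by 2.70 at 1 h (adjusted p = 0.00019 over all probes), so that the call of Hspa8 depends on the probe. Hspb1, the small heat shock protein Hsp25, had 106, 93.6 and 102 at 1 h and 56.7, 91.0 and 92.0 at 3 h, against 119, 141 and 167 at 0 h. All its arrays at these times were below all controls, with changes of -0.49 (adjusted p = 0.57) and -0.85 (adjusted p = 0.053) that did not pass. At 3 h it did pass in the fit of genes brighter than the median (adjusted p = 0.014), with an intensity trend (0.045) and with a replicate block (0.044). In brighter genes it also passed at 6 h (-0.63, adjusted p = 0.043). A dimmer probe of Hspb1 changed by 0.03 at 1 h, -0.41 at 3 h and 0.04 at 6 h and passed at no time, so that the fall depends on the probe.

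To show what lies upstream of these genes, promoter windows of 250 bases before to 50 bases after the start of transcription were taken from RefSeq (GRCm38.p6), of which 74 windows belonged to 57 members. The heat shock element to which HSF1 binds is built of short units in alternating orientation. A pair of units, GAANNTTC, which reads the same on both strands, was in the window of 14 of the 57 members (24.6%), and in that of 9.04% of all 27025 genes with a window (7.86% of 32851 windows). These were Hspa1a, Hspa1b, Hsph1, Hspb1, Hspb3, Hspb6, Hspb8, Dnaja1, Dnaja4, Dnajb6, Dnajc5g, Dnajc27, Hspd1 and Hspe1. A run of 3 units, which always contains such a pair, was in the windows of Hspd1, Hspe1, Hsph1 and Dnajb6 (7.02%), and in those of 0.662% of all genes (0.603% of windows). The following stretches are printed because they belong to genes that rose at 1 h, changed later or did not change. The pair or run is in capitals, and each is read 5′ to 3′ on the strand of the gene.
Hspa1a: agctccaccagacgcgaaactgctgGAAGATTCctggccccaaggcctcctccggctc
Hspa1b: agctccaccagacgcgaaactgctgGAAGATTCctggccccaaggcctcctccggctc
Dnaja1: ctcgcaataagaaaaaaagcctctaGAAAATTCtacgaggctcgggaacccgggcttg
Hspe1: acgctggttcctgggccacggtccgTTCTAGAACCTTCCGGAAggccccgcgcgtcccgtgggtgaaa

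The stretch of Hspa1a lies at chr17:34972228-34972285 on the minus strand, 129 to 72 bases before the start, and that of Hspa1b at chr17:34959310-34959367 on the minus strand, at the same distance. Both stretches have the same letters, and the whole windows of 300 bases were identical at 296 positions (98.7%). The stretch of Dnaja1 is at chr4:40722319-40722376 on the plus strand, 149 to 92 bases before the start. That of Hspe1, at chr1:55088034-55088101 on the plus strand, 114 to 47 bases before the start, lies in a region that Hspe1 shares with the window of Hspd1 on the opposite strand. Hspa1a passed at 1 h, Dnaja1 was lower at 6 h, and Hspe1 and Hspd1 passed at no time as deposited. Dnajb1 and Dnajb4, which also rose at 1 h, had no GAANNTTC in their windows. Pairs with the units in the opposite order were not searched for, so their absence is not shown. The matches found describe the letters in the windows, and binding was not measured.

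Chaperones of the ER were higher late. At 6 h, 7 of 13 ER members were higher and 2 lower, where 15.4% of all genes were higher and 12.7% lower, and the median log2 change was 0.35, against 0.02 for all genes. At 1 h, 0 of the 13 passed. At 3 h 0 were higher and 4 lower, where 5.15% of all genes were higher and 14.7% lower. After quantile normalization 1 was higher and 2 lower, where 7.96% and 9.06% of all genes were. Hspa5 (BiP), the central Hsp70 of the ER, had 8413, 8545 and 8458 at 6 h, against 4727, 4112 and 5571 on the control arrays. The arrays at 1 h and 3 h lay between 4449 and 6019, and only those at 6 h were apart from the controls (log2 change 0.83, SE 0.14, adjusted p = 0.0018). Hsp90b1 (Grp94), the Hsp90 of the ER, had 4511, 4472 and 4748 at 6 h, against 2725, 2288 and 2647 at 0 h (log2 change 0.85, SE 0.13, adjusted p = 0.0012). Its arrays at 1 h and 3 h were between 2009 and 3425, all below those at 6 h.

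Besides these, 3 J proteins that serve Hspa5 passed at 6 h. Dnajb11 (ERdj3), a secreted and luminal J protein that binds clients directly, had 1041, 1009.9 and 1091 at 6 h, against 474, 384 and 589.9 on the control arrays (log2 change 1.14, SE 0.20, adjusted p = 0.0022). For Dnajc3 (p58IPK), a luminal J protein that also inhibits the kinase PERK, the signals were 1949, 2017 and 1933 at 6 h, against 1051, 1132 and 1063 at 0 h (log2 change 0.86, SE 0.11, adjusted p = 0.00033). In both genes the arrays at 6 h were close together and did not overlap with any other time point. Dnajb9 (ERdj4), which takes part in ER-associated degradation, had signals of 1746, 1475 and 1775 on the control arrays, then 1850.3, 2000.3 and 1597 (1 h), 2221, 2924 and 1920.2 (3 h) and 3379.5, 3366 and 2815 (6 h). Its 3 arrays at 3 h already lay above all controls, with a change of 0.48 (adjusted p = 0.072) that passed after quantile normalization (0.58, adjusted p = 0.039), in the fit of genes brighter than the median (adjusted p = 0.031) and without ConA 3 h replicate 3 (adjusted p = 0.042), and the change at 6 h was 0.94 (SE 0.17, adjusted p = 0.0024). Hspa13 (Stch), an Hsp70-like protein of microsomes that lacks the substrate-binding part, had 1359, 1438 and 1313 at 6 h, against 547, 456 and 622 at 0 h, which was the largest change of the compartment (log2 change 1.35, SE 0.18, adjusted p = 0.00054). All 6 of these genes passed at 6 h under both scalings and without any 1 array.

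Dnajc10 (ERdj5), a J protein with thioredoxin domains that reduces disulfides, had another course. Its signals were 375, 422 and 410.0 on the control arrays, then 417, 382 and 336 (1 h), 264, 293 and 254 (3 h) and 461, 515 and 570.3 (6 h). The arrays at 3 h were the lowest and those at 6 h the highest, without overlap with the controls. The log2 change of -0.57 at 3 h had an adjusted p of 0.0081, and that of 0.35 at 6 h an adjusted p of 0.046. The fall passed under both scalings and without any 1 array, but in neither of the 2 other probes of the gene (-0.17 and -0.40, adjusted p = 0.28 each over all probes). The rise at 6 h did not pass after quantile normalization (0.29, adjusted p = 0.080), nor without any 1 of 9 arrays (any control or ConA 3 h replicate, ConA 1 h replicate 2, or ConA 6 h replicate 2 or 3), with values of 0.28 to 0.43 and adjusted p of up to 0.15 over all 12 such fits. Of the other probes, 1 rose by 0.70 at 6 h (adjusted p = 0.00080) and 1 changed by 0.39 (adjusted p = 0.26).

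Of the J proteins anchored in the ER membrane, 3 were lower at 3 h or 6 h. Dnajc16 had signals of 76.9, 88.4 and 74.8 on the control arrays, then 73.2, 58.0 and 63.2 (1 h), 37.0, 42.9 and 38.7 (3 h) and 27.4, 42.8 and 35.9 (6 h), with the arrays at 3 h and 6 h all below the controls. Its log2 change was -1.02 at 3 h (adjusted p = 0.0028) and -1.20 at 6 h (SE 0.16, adjusted p = 0.00058). A dimmer probe of the same gene, with mean signals of 18.3 at 3 h, 16.9 at 6 h and 5.05 at 0 h, changed by 1.76 and 1.73 at 3 h and 6 h (adjusted p = 0.013 and 0.0083 over all probes), so that the direction of Dnajc16 depends on the probe. Dnajb14 was lower at both times (-0.49 and -0.42, adjusted p = 0.017 and 0.022), and Dnajc18 at 3 h (-0.71, adjusted p = 0.030). The calls of Dnajb14 and Dnajc18 at 3 h were lost after quantile normalization (-0.27 and -0.46), and another probe of Dnajc18 changed by 0.11. A dimmer probe of Dnajb14 did not pass (-0.52 and -0.32 at 3 h and 6 h). Without control replicate 2 or ConA 3 h replicate 2 Dnajb14 did not pass at 3 h (adjusted p of up to 0.058), nor at 6 h without control replicate 1 or 2 or ConA 6 h replicate 1 or 3 (up to 0.073), and Dnajc18 did not pass at 3 h without any control replicate or ConA 3 h replicate 1 or 3 (up to 0.089). Dnajb12, Dnajc1 and Dnajc25 did not pass against 0 h, although a second probe of Dnajc1 was lower at 6 h (-0.42, adjusted p = 0.014 over all probes).

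**Figure D3:**
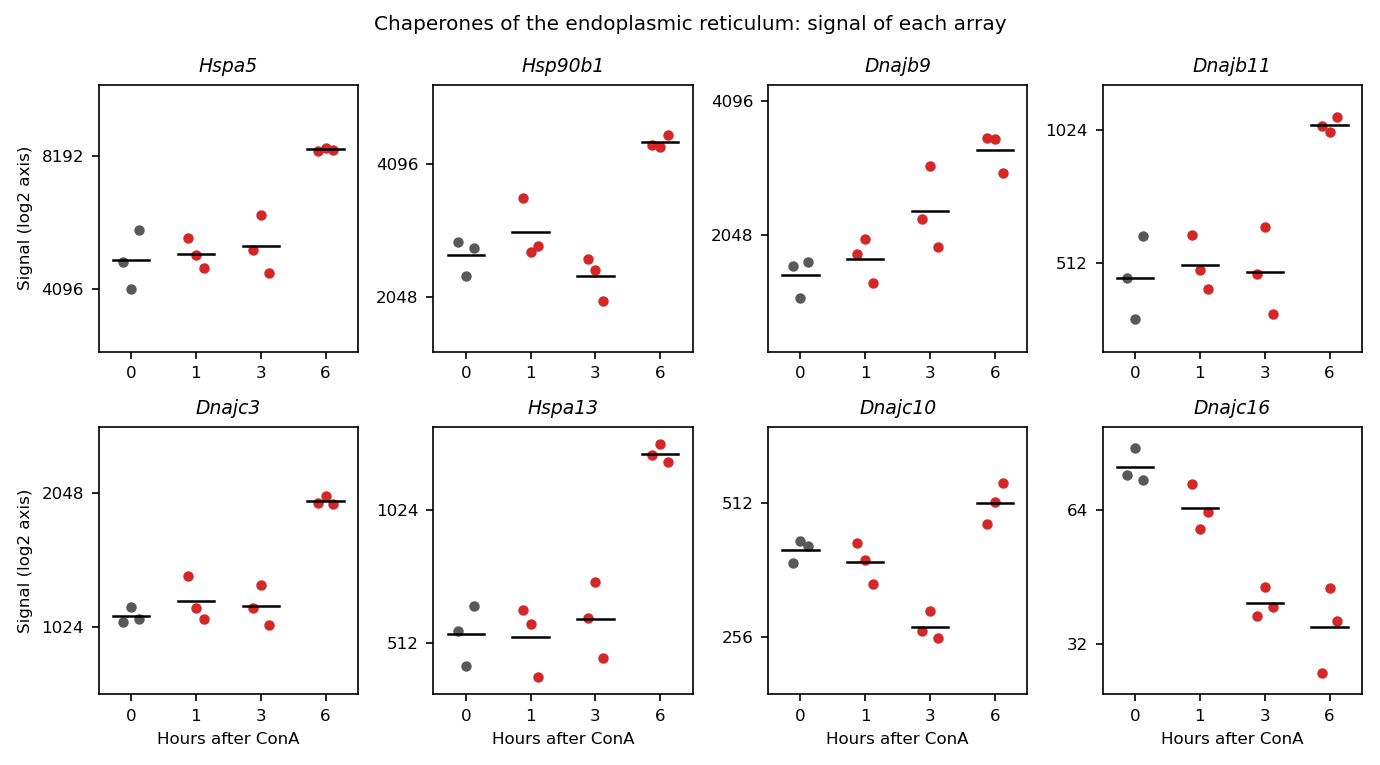
Signal of each of the 12 arrays (points, log2 axis, a different range in each panel) at 0, 1, 3 and 6 h after ConA for 8 members of the endoplasmic reticulum, with the geometric mean of each group as a line. Control arrays are grey and ConA arrays red. In Hspa5, Hsp90b1, Dnajb11, Dnajc3 and Hspa13 the 3 arrays at 6 h stand above all 9 others, Dnajc10 is lowest at 3 h, and Dnajc16 is lower at 3 h and 6 h.

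The ER stress response element, CCAAT and CCACG separated by 9 free bases and searched on both strands, was in the windows of 3 of the 57 members (5.26%), namely Hspa5, Hsp90b1 and Dnajc3, and in those of 0.137% of all genes (0.119% of windows). The windows of these 3 genes held no GAANNTTC, the pair of heat shock units that was searched for. These 3 stretches are shown because all 3 genes were higher at 6 h, and the element is in capitals.
Hspa5: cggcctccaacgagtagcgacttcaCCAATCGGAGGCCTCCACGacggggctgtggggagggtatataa
Hsp90b1: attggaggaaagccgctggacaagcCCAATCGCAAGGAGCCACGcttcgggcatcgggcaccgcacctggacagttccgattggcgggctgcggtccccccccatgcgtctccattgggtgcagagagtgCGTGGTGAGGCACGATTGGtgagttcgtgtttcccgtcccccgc
Dnajc3: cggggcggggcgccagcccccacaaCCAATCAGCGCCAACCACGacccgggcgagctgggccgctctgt

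The stretch of Hspa5 is at chr2:34772000-34772068 on the plus strand, 90 to 22 bases before the start. That of Hsp90b1 is at chr10:86705508-86705681 on the minus strand, 237 to 64 bases before the start, and holds the element 2 times, in opposite orientations. The stretch of Dnajc3 is at chr14:118937802-118937870 on the plus strand, 130 to 62 bases before the start. Dnajb9 and Dnajb11, which were also higher at 6 h, had windows without this exact element.

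Of the 14 partner genes for folding and degradation in the ER, 9 were higher and 0 lower at 6 h, where 15.4% and 12.7% of all genes were, with a median log2 change of 0.49. After quantile normalization 7 were higher, where 14.2% of all genes were. Creld2, a secreted protein induced by ER stress, had 3048, 2595 and 3252 at 6 h, against 521, 259 and 788 on the control arrays (log2 change 2.64, SE 0.44, adjusted p = 0.0018). Sdf2l1, a subunit of the complex of Hspa5 with Dnajb11, had 789, 492 and 704 at 6 h, against 136, 96.8 and 213 at 0 h (log2 change 2.20, SE 0.39, adjusted p = 0.0025). Among all partners these were the largest rises. The arrays at 6 h did not overlap with the controls in either gene.

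Of the 9 mitochondrial members, 1 was higher (11.1%, against 15.4% of all genes) and 3 were lower (33.3%, against 12.7%) at 6 h, with a median of -0.16. After quantile normalization 1 was higher and 5 were lower, where 14.2% and 17.7% of all genes were. Hspd1 (Hsp60), the mitochondrial chaperonin, had signals of 3324, 3589 and 3805 on the control arrays, then 4038, 3424 and 3517 (1 h), 3563, 3349 and 3483 (3 h) and 3717, 3962 and 3518 (6 h). Its log2 changes were 0.03, -0.04 and 0.06 in order of time, each with an SE of 0.09, and the groups overlapped throughout. Hspe1 (Hsp10), the lid of Hsp60, had 2837, 3001 and 2623 at 6 h, against 3101, 3059 and 3281 at 0 h (log2 change -0.16, SE 0.12, adjusted p = 0.37). All 3 arrays at 6 h were below the controls, and the difference passed after quantile normalization (-0.23, adjusted p = 0.042). Hspa9 (mortalin), the Hsp70 of the import motor, had 1541, 1730.3 and 1594 at 6 h, against 1664, 1676 and 1555 at 0 h (log2 change -0.01, SE 0.10, adjusted p = 0.99), and Dnaja3 (Tid1), its J protein in the matrix, had 745, 966 and 858, against 643, 757 and 626 (log2 change 0.34, SE 0.12, adjusted p = 0.070). In both, the groups overlapped. The change of Dnaja3 passed in brighter genes and with an intensity trend (adjusted p = 0.045 each), without control replicate 2 or ConA 6 h replicate 1 (0.045 and 0.035), and in a second probe (0.66, adjusted p = 0.012 over all probes).

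Dnajc11, a J protein associated with the complex that shapes the cristae, was the member that rose, with 198, 273 and 199.7 at 6 h, against 128, 118 and 149 on the control arrays (log2 change 0.76, SE 0.16, adjusted p = 0.0054). None of its 3 other probes passed the test, with changes of 0.57, -0.25 and -0.51. Dnajc28 had signals of 96.4, 97.7 and 65.0 on the control arrays, then 92.3, 76.2 and 60.6 (1 h), 37.7, 48.9 and 33.9 (3 h) and 37.8, 51.8 and 42.8 (6 h). Every array at 3 h and 6 h was below all controls (log2 change -1.10, SE 0.23, adjusted p = 0.0091 at 3 h, and log2 change -0.96, SE 0.23, adjusted p = 0.011 at 6 h). Dnajc4 was lower at 3 h and 6 h (-0.56 and -0.63, adjusted p = 0.033 and 0.014), and Dnajc15, a J protein of the inner membrane, at 6 h (-0.51, adjusted p = 0.019). For Dnajc4 the call at 3 h was lost after quantile normalization (-0.34) and without control replicate 2 or any ConA 3 h replicate (adjusted p of up to 0.099), and that at 6 h without ConA 6 h replicate 3 (0.054). At 3 h Dnajc15 passed when only these groups entered the fit (-0.35, adjusted p = 0.048). At 6 h it did not pass without control replicate 2 or ConA 6 h replicate 1 or 3 (adjusted p of up to 0.065). Dnajc30 did not pass against 0 h as deposited.

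**Figure D4:**
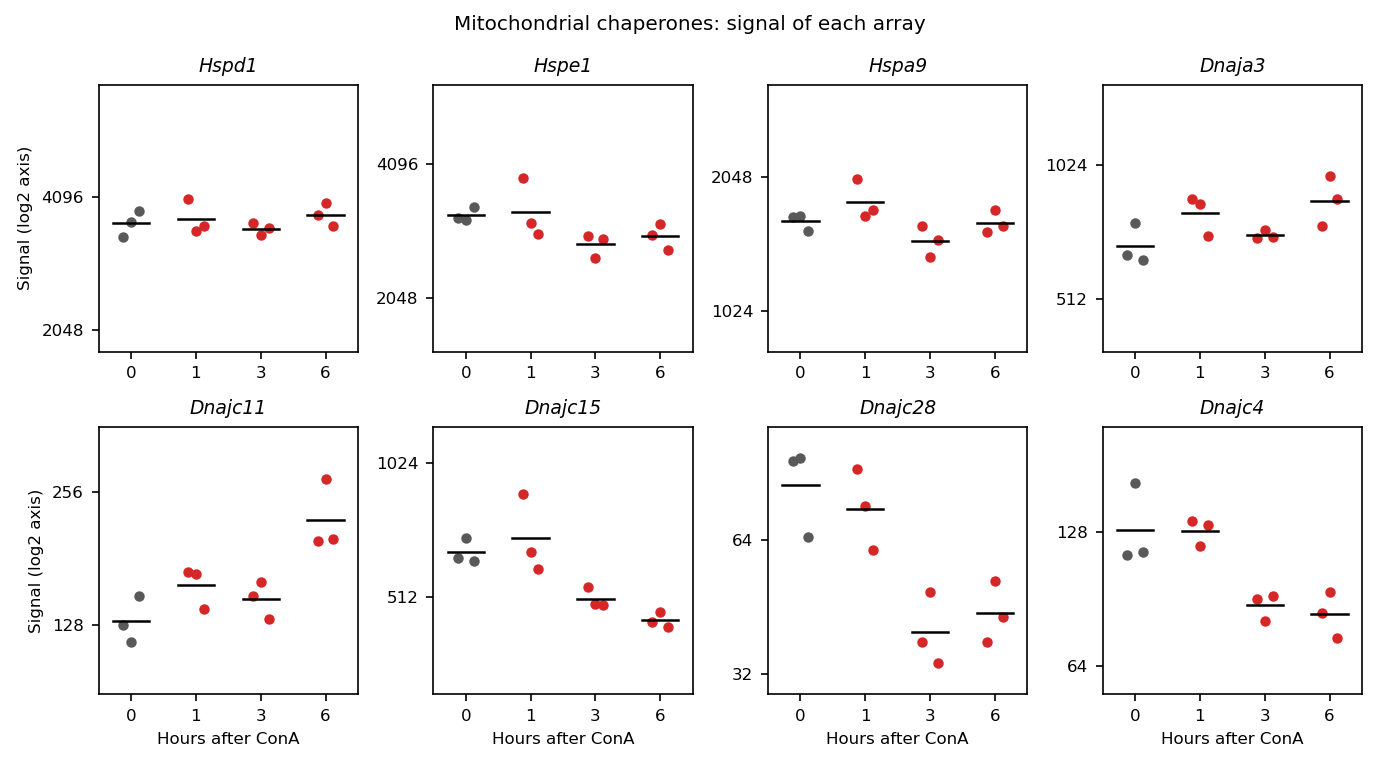
Signal of each of the 12 arrays (points, log2 axis, a different range in each panel) at 0, 1, 3 and 6 h after ConA for 8 mitochondrial members, with the geometric mean of each group as a line. Control arrays are grey and ConA arrays red. Hspd1 and Hspa9 stay within the range of the controls or near it, Dnajc11 is higher at 6 h, and Dnajc28 and Dnajc4 are lower at 3 h and 6 h.

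At 6 h the cytosolic Hsp70, Hsp110 and Hsp90 genes had 5 of 10 members higher and 0 lower, where 15.4% and 12.7% of all genes were, with a median of 0.67. Besides Hspa1a these were Hspa2, Hspa14, Hsp90aa1 and Hspa4. Hspa2, an Hsp70 best known from the testis, had 95.6, 92.2 and 68.2 at 6 h, against 30.1, 30.5 and 16.7 on the control arrays (log2 change 1.76, SE 0.29, adjusted p = 0.0017). Its arrays at 1 h and 3 h lay between 21.9 and 40.4, below those at 6 h. None of the 3 testis markers measured (Prm1, Tnp1 and Odf1) passed at any time.

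Hspa14, which in mammals forms the ribosome-associated complex with Dnajc2 at the exit of nascent chains, had signals of 166, 141 and 147 on the control arrays, then 211, 169 and 155 (1 h), 240.3, 223 and 278 (3 h) and 282, 307 and 345 (6 h). The arrays at 3 h and 6 h were all above the controls, with changes of 0.71 (adjusted p = 0.0082) and 1.04 (SE 0.14, adjusted p = 0.00058). It was also the member that was higher at 3 h than at 1 h (0.48, adjusted p = 0.040). That difference did not pass without any 1 of 6 arrays, without a floor, with a replicate block or with only the groups compared. Its partner Dnajc2 did not pass with the chosen probe (0.59 at 6 h, adjusted p = 0.10), while a second probe was higher at 6 h (0.71, adjusted p = 0.025 over all probes). Neither other probe of Hspa14 passed at 3 h (0.44 and 1.12, adjusted p = 0.48 and 0.088 over all probes). At 6 h the brighter of them passed (1.30, adjusted p = 0.028), and the dimmer did not (0.60, adjusted p = 0.35). For 3 h against 1 h they changed by 0.04 and 0.53 and did not pass.

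Hsp90aa1, the inducible cytosolic Hsp90, had 3563, 4339 and 4045 at 6 h, against 2502, 1728 and 2826 at 0 h (log2 change 0.79, SE 0.20, adjusted p = 0.015). All arrays at 6 h were above the controls, those at 1 h and 3 h overlapped with them, and the call was lost without ConA 6 h replicate 2 (adjusted p = 0.053). Hspa4 (Apg-2), an Hsp110, had 749, 1024 and 826 at 6 h, against 576, 560.3 and 680.2 at 0 h (log2 change 0.51, SE 0.15, adjusted p = 0.034). This call was lost without control replicate 1 or 2, ConA 1 h replicate 2, or ConA 6 h replicate 2 or 3, with values of 0.38 to 0.61 and adjusted p of up to 0.11 over all 12 such fits. Of the other probes of Hsp90aa1, the brighter ones were higher at 6 h (0.975 and 1.005, adjusted p = 0.029 and 0.023 over all probes). The dim ones changed by -0.13 and 0.04 and did not pass. The 3 other probes of Hspa4 changed by -0.30, 0.06 and 0.85, and none of these passed. In a fit of only the arrays at 6 h and 0 h, Hsp90aa1 (adjusted p = 0.054) and Hspa4 (adjusted p = 0.071) did not pass. Hspa1l and Hspa4l did not pass, nor did the divergent Hsp70 genes Hspa12a and Hspa12b.

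Of the 12 J proteins of class A and B, 0 were higher and 2 lower at 6 h (Dnajb4 and Dnaja1), with a median of -0.14. Of all genes 15.4% were higher and 12.7% lower, and the share of these members lower was 16.7%. After quantile normalization 1 was higher and 4 were lower, where 14.2% and 17.7% of all genes were. Dnaja1, a farnesylated J protein that is the abundant class A partner of Hspa8, had 1683, 1540.4 and 1429 at 6 h, against 2603, 2175 and 2799 on the control arrays. All 3 arrays at 6 h were below all others (log2 change -0.70, SE 0.12, adjusted p = 0.0025), and no single array decided the call. Dnajb2, which binds ubiquitinated clients, was lower at 3 h (-0.57, adjusted p = 0.030), and this passed neither after quantile normalization (-0.39) nor without any 1 control or ConA 3 h array (adjusted p of up to 0.087). Dnaja2, Dnaja4, Dnajb3, Dnajb5, Dnajb6, Dnajb7, Dnajb8 and Dnajb13 did not pass against 0 h. Other probes of Dnaja2 did, 1 higher at 3 h (1.45, adjusted p = 0.0022 over all probes) and 1 lower at 6 h (-0.57, adjusted p = 0.035).

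Among the 8 small heat shock proteins, Hspb8 was the only one higher. Hspb6 (Hsp20), which is known from muscle cells, was lower at 3 h (-0.43, adjusted p = 0.037) and not after quantile normalization (-0.21, adjusted p = 0.25), nor without control replicate 1 or 2, ConA 1 h replicate 2, or ConA 3 h replicate 2 or 3 (adjusted p of up to 0.12). At 6 h its change of -0.35 (adjusted p = 0.061) passed after quantile normalization (-0.51, adjusted p = 0.0054) and in brighter genes (adjusted p = 0.038). Hspb7 was near the floor and was lower at 6 h than at 3 h (-1.82, adjusted p = 0.0093). Hspb2, Hspb3, Hspb9 and Hspb11 did not pass against 0 h. The related Cryab among the partner genes had 22.3, 24.5 and 24.6 at 6 h, against 48.8, 46.4 and 44.5 at 0 h (log2 change -0.97, SE 0.16, adjusted p = 0.0020). The stellate cell markers whose sums are given above were lower over the same hours, and their part in the values of Hspb6 and Cryab was not tested.

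Class C J proteins, which share only the J domain and serve single tasks, had 5 of 16 members higher (31.2%, against 15.4% of all genes) and 1 lower (6.25%, against 12.7%) at 6 h, with a median of 0.30. Dnajc12, which binds the aromatic amino acid hydroxylases, among them the phenylalanine hydroxylase of the liver, had 781, 612 and 568 at 6 h, against 207, 326 and 194 on the control arrays (log2 change 1.46, SE 0.25, adjusted p = 0.0019). Dnajc24, a J protein needed for the diphthamide modification of elongation factor 2, had 99.6, 100.5 and 72.5 at 6 h, against 44.8, 42.0 and 49.9 at 0 h (log2 change 0.98, SE 0.25, adjusted p = 0.017). Dnajc21, which takes part in the maturation of the large ribosomal subunit, had 332, 341 and 327, against 181, 164 and 232 (log2 change 0.81, SE 0.15, adjusted p = 0.0029). In these 3 genes the arrays at 6 h were above all control arrays. The call of Dnajc24 was lost without control replicate 1 or 2 or ConA 6 h replicate 1 or 2, with values of 0.90 to 1.14 and adjusted p of up to 0.059 over all 12 such fits.

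Smaller rises at 6 h were those of Dnajc5, the cysteine string protein of secretory vesicles (0.44, adjusted p = 0.0086), and Dnajc7, a cochaperone with tetratricopeptide repeats (0.41, adjusted p = 0.010, and 0.29 after quantile normalization, adjusted p = 0.051). With an intensity trend Dnajc7 was also lower at 3 h (-0.28, adjusted p = 0.045). Dnajc9, a histone chaperone linked to DNA replication, had 47.6, 35.8 and 41.3 at 3 h and 40.4, 43.3 and 36.7 at 6 h, against 58.5, 61.7 and 79.4 at 0 h. Its arrays at both times were all below the controls (log2 change -0.68, SE 0.16, adjusted p = 0.018 at 3 h, and log2 change -0.72, SE 0.16, adjusted p = 0.0087 at 6 h), and the call at 3 h was lost after quantile normalization (-0.43) and without control replicate 3 or ConA 3 h replicate 2 or 3 (adjusted p of up to 0.062). Dnajc2, Dnajc5b, Dnajc5g, Dnajc6, Dnajc8, Dnajc13, Dnajc14, Dnajc17, Dnajc22 and Dnajc27 did not pass against 0 h.

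**Figure D5:**
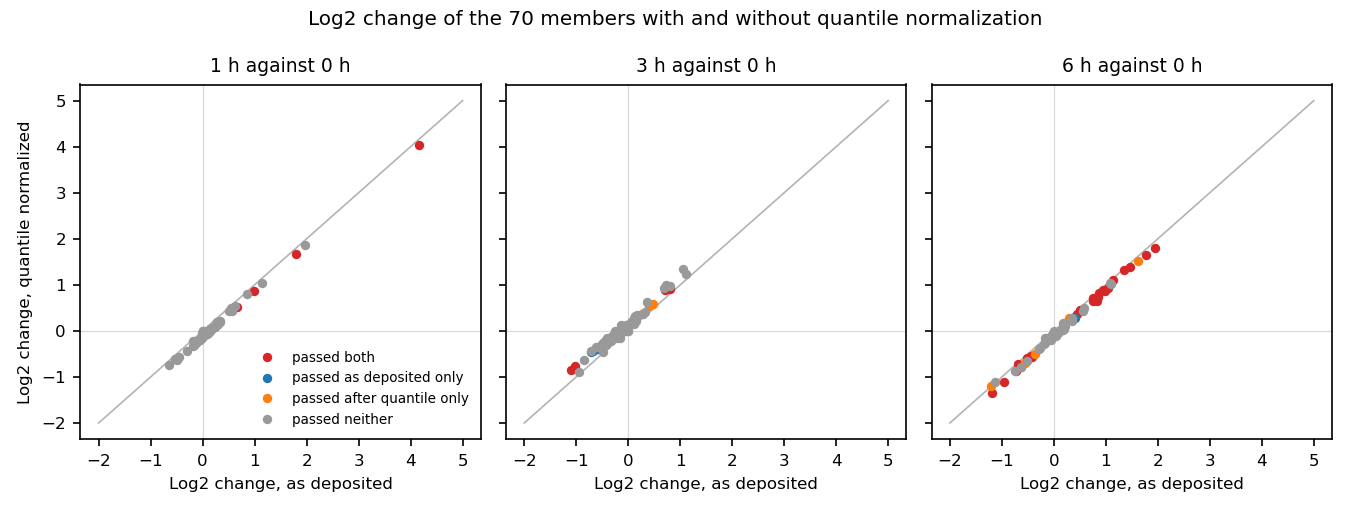
Log2 change of the 70 members against 0 h as deposited (horizontal axis) and after quantile normalization (vertical axis) at 1, 3 and 6 h, with the line of equality and colours for the scaling under which a member passed the test. At 3 h the points lie above the line and 6 of the 9 lower members pass as deposited only, while at 1 h all 4 higher members pass both.

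Over time the calls as deposited sorted the members into several courses. The shares of all genes with these courses are not given here, so the counts describe the members only. Of the 31 that passed against 0 h at any time, 15 were higher at 6 h alone, 5 were lower at both 3 h and 6 h (Dnajb14, Dnajc4, Dnajc9, Dnajc16 and Dnajc28), 3 were lower at 3 h alone and 2 lower at 6 h alone. Each of the other 6 (Hspb8, Hspa1a, Dnajb1, Dnajb4, Hspa14 and Dnajc10) had a course of its own. The remaining 39 members passed at no time. These courses depend on the threshold and the scaling. After quantile normalization all 3 members lower at 3 h alone (Dnajb2, Dnajc18 and Hspb6) lost that call (adjusted p = 0.061, 0.17 and 0.25). Dnajb9, counted as higher at 6 h alone, passed at 3 h under that scaling (adjusted p = 0.039).

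Of the 66 partner genes measured of 70 listed, 1 was higher after 1 h (1.52%, against 1.5% of all genes). After 3 h there were 4 higher (6.06%, against 5.15% of all genes) and 13 lower (19.7%, against 14.7%). After quantile normalization these were 4 and 6, where 7.96% and 9.06% of all genes were. After 6 h 20 were higher (30.3%, against 15.4%) and 5 lower (7.58%, against 12.7%). Quantile normalization gave 18 and 12, where 14.2% and 17.7% of all genes were. The partner Atf4, a transcription factor of the integrated stress response, had 656, 736 and 638 at 3 h and 1183, 1083 and 897 at 6 h, against 453, 429 and 385 at 0 h (log2 change 1.31, SE 0.14, adjusted p = 0.00016 at 6 h), and Xbp1, which drives ER chaperone genes, had changes of 0.62 (adjusted p = 0.014) and 0.83 (adjusted p = 0.0019). Both genes were higher at 3 h. Of the 13 ER members 0 were higher then as deposited, against 5.15% of all genes, and 1 (Dnajb9) was after quantile normalization. The part of Atf4 and Xbp1 in the changes of the ER members was not tested. Clpx, the unfoldase of the mitochondrial Clp protease, was higher at 6 h (2.02, adjusted p = 0.00048), and so was Fkbp5, a glucocorticoid-induced cochaperone of Hsp90 (1.91, adjusted p = 0.00025). Fkbp4, its counterpart in steroid receptor complexes, was lower at 6 h (-1.54, adjusted p = 0.0014). Grpel2, an exchange factor for the mitochondrial Hsp70, was lower at 3 h (-1.84, adjusted p = 0.00062) and 6 h (-1.16, adjusted p = 0.0040), and Hsf2, a relative of HSF1, at 3 h (-1.12, adjusted p = 0.016). Hsf1 and Hsp90ab1 were not analysed here.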

How the data were processed

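Hepatic expression was measured on 12 Affymetrix mouse 430 2.0 arrays in 4 groups of 3. The authors deposited 1 table of array intensity values on a linear scale for 45101 probes. MAS5 version 5.0 is named in the submitters' processing notes and RMA in the methods, and the sorted values differed between arrays, which quantile normalization would have removed. The values were therefore used as deposited, with a floor at their 20th percentile (3.04), and log2 was taken. After 64 control probes were left out, 34945 of 45037 probes had a single symbol, 932 had several, and 9160 were without one. Among the probes with a single symbol, the Entrez ID of 34741 matched a RefSeq gene, whose symbol was used. The other 204 had no match and kept the symbol they had. The probe of highest mean stood for each of the 18193 genes.

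A single limma model (version 3.58.1, R 4.3.3) of 4 group means was used, without intensity trend or block, and Benjamini-Hochberg adjusted p under 0.05 was the threshold. The fit was tested on simulated data. Residuals of arrays with the same replicate number correlated by -0.01 to 0.04 (18 pairs), and those with other numbers by -0.06 to 0.03 (36 pairs), so the numbers were not taken to pair arrays. The members and lists were chosen with earlier results of these data known. The genes named with values were 17 measured textbook chaperones, those among the 20 largest changes past the test whose 3 arrays lay beyond the controls (12 more), every other member past the test (10) and the 4 largest rises and falls of the partner list. Other genes with values were chosen after these were seen. The alternatives were quantile normalization, log2(value + 1) without a floor, brighter genes, a replicate block, an intensity trend, fitting only the groups compared, a 2-fold minimum, a threshold of 0.01, other probes of a gene, and leaving out each array. Promoter windows came from RefSeq (GRCm38.p6) and matched 57 of 70 members.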

Additional observations from a re-analysis of the deposited data

Results flagged for a closer look

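The response of Dnajc10 differed between time points under the same comparison with 0 h, being lower at 3 h and higher at 6 h as deposited. The rise at 6 h (0.35, adjusted p = 0.046) was lost after quantile normalization and without any 1 of 9 arrays. The difference of 6 h minus 3 h was 0.93 on the log2 scale (SE 0.11, adjusted p = 0.0011 by limma), and all 3 arrays at 6 h (461, 515 and 570.3) lay above all 3 at 3 h (264, 293 and 254). In the 2 other probes of the gene this difference was 0.88 and 0.79 (adjusted p = 0.00099 and 0.034 over all probes), but the fall at 3 h passed in neither. Dnajb4 was higher at 1 h and lower at 6 h as deposited. Its fall at 6 h (-0.44, adjusted p = 0.042) was lost without any 1 of 8 arrays. In a second probe it was -0.09 (adjusted p = 0.82 over all probes). The difference of 6 h minus 1 h was -1.43 (SE 0.14, adjusted p = 0.00012), with 301, 243 and 240 at 6 h and 753, 644 and 711 at 1 h. Since the same control arrays enter both changes of each gene, these differences rest on the arrays after ConA alone.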

How the results depend on the processing

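Under quantile normalization 5 members were higher and 3 lower at 3 h, 13 lower at 6 h, 3 higher and 2 lower at 3 h against 1 h, and 11 higher and 5 lower at 6 h against 3 h. The shares of all genes under this scaling are given above beside these counts. Of the 42 calls against 0 h, 34 passed with the same direction under quantile normalization, 37 with log2(value + 1) and no floor, 32 with only the groups compared, 39 with a replicate block and all 42 with brighter genes or an intensity trend. The count higher at 3 h against 1 h, which was 1, became 0 without a floor, with the replicate block and with only the groups compared, and the last gave 9 lower. In brighter genes 5 members were higher at 3 h. With the replicate block the other counts stayed within 1.5 times, such as 17 higher at 6 h, and the calls of Dnajc10 and Hspa4 at 6 h and Dnajc4 at 3 h were lost. With a change of at least 2-fold, 2 were higher at 1 h, 0 higher and 2 lower at 3 h, 6 higher and 1 lower at 6 h, 0 higher and 3 lower at 3 h against 1 h, and 6 higher and 1 lower at 6 h against 3 h. At adjusted p under 0.01, 3 were lower at 3 h, 3 lower at 6 h, 0 higher and 2 lower at 3 h against 1 h, 11 higher at 6 h against 3 h, and 20 passed the F test. Taking any probe of a gene gave 6 higher at 3 h and 4 lower at 6 h against 3 h. The cause of these moves was not tested beyond what each setting does by construction. Apart from quantile normalization, the shares of all genes under these settings are not given here, nor are those with an array left out. These counts describe the members only.

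Leaving out each array in turn gave 3 to 5 members higher and 0 to 0 lower at 1 h, 2 to 4 higher and 4 to 11 lower at 3 h, 15 to 19 higher and 4 to 9 lower at 6 h, 0 to 1 higher and 4 to 18 lower at 3 h against 1 h, 14 to 20 higher and 2 to 3 lower at 6 h against 3 h, and 31 to 36 past the F test. Counts moved by over 1.5 times without ConA 3 h replicate 3 (4 higher and 4 lower at 3 h, 9 lower at 3 h against 1 h), control replicate 2 (5 lower at 3 h and 5 at 6 h), ConA 3 h replicate 2 (5 lower at 3 h, 12 at 3 h against 1 h), ConA 6 h replicate 3 (4 lower at 6 h), and, for those lower at 3 h against 1 h, ConA 1 h replicate 1 (4), ConA 1 h replicate 2 (9) and ConA 3 h replicate 1 (13). The member higher at 3 h against 1 h, Hspa14, was lost without control replicate 3, ConA 1 h replicate 2 or 3, ConA 3 h replicate 2 or 3, or ConA 6 h replicate 2.

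Other probes of the same gene had the opposite sign for Dnajc18 at 3 h (0.11), Hsp90aa1 at 6 h (-0.13), Dnajc16 at 3 h (1.76) and 6 h (1.73), Hspa4 at 6 h (-0.30), Dnajb4 at 1 h (-0.52) and 3 h (-1.30), Dnajc11 at 6 h (-0.51 and -0.25) and Hspb8 at 6 h (-0.54). Signals near the floor of 3.04 limit 12 members, whose changes are understated where a group sits at it.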

Other observations

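The spread among the 3 control arrays was wide in some members, which were singled out after the values were seen. Of the 58 members above the floor on all arrays, the log2 distance between the highest and lowest control array had a median of 0.28, and of 12003 genes above the floor everywhere it had a median of 0.39. It was 3.02 in the dim Dnajb13, 1.43 in Hsph1, 1.26 in Hspa1b, 1.25 in Hspb2, 1.11 in Hspa1a and 0.93 in Hspa8, while Dnajb1 had 0.28, Hspb8 0.25 and Dnajb4 0.18. Control replicate 2 was the lowest control array in Hsph1, Hspa1b, Hspa8 and Hsp90aa1, and control replicate 3 the highest in these and in Hspa1a. Over the 58 members, the lowest control array was replicate 1 in 14, replicate 2 in 22 and replicate 3 in 22.

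A dimmer probe of Hspa8 differed from the chosen one. Its mean signal was 32.0 at 0 h, 207 at 1 h, 106 at 3 h and 143 at 6 h, with log2 changes of 2.70, 1.71 and 2.17 (adjusted p = 0.00019, 0.00070 and 0.00010 over all probes), and it was chosen after its values were seen. The 3 brighter probes of Hspa8 did not pass at any time, with changes of 0.27, 0.31 and 0.53 at 1 h.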
